A study of Mus musculus with 6 samples.

Results

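Chemokines are small secreted proteins that draw leukocytes to a tissue, and Csf1 (macrophage colony-stimulating factor) supports the survival and growth of macrophages. Skeletal muscle cells make several of them. The 10 genes described here are the CXC chemokines Cxcl1, Cxcl2, Cxcl5, Cxcl10 and Cxcl12, the CC chemokines Ccl2, Ccl5 and Ccl7, the membrane-bound chemokine Cx3cl1 and Csf1. They were listed with earlier results of these data known, were taken from the array by gene symbol, and are all reported, whatever their response. They are 10 of the 12393 genes that the array measures under a single symbol, with 16 probe sets among the 22626 that are not array controls. Of these 16, 14 were bright enough to be tested, covering 9 of the 10 genes, and Cxcl2 was the gene left out.

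The cells were C2C12 myotubes, which are multinucleated muscle fibres formed in culture by fusion of an established mouse myoblast line. Myoblasts grown in 20% fetal bovine serum were kept in 2% horse serum for 5 days, and the myotubes then received either 500 µM palmitate, a saturated long-chain fatty acid bound to fatty acid-free bovine serum albumin (BSA), or 1% BSA, in both cases for 16 h. Each group had 3 Affymetrix mouse 430A 2.0 arrays. The labels do not say whether the replicates were separate cultures. The p-values therefore cover the spread among these arrays alone, which could be technical in origin, and the number of arrays limits the precision. A single cell line stands for muscle here, and it lacks the leukocytes and vessels of a tissue.

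In chemokine biology the receptor decides which cell is called. Cxcl1, Cxcl2 and Cxcl5 act on Cxcr2 of neutrophils, Cxcl10 on Cxcr3 of activated T cells, Ccl2 and Ccl7 on Ccr2 of monocytes, Cx3cl1 on Cx3cr1, and Csf1 on Csf1r of the macrophage lineage. Cxcl12 acts on Cxcr4 and is removed by the scavenger receptor Ackr3, and it is known for guiding migrating cells, muscle precursors among them. Many inflammatory chemokine genes are switched on by the transcription factor NF-kB, and Cxcl10 also by interferons.

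Palmitate moved these genes in both directions. Cxcl1 rose 2.32-fold and Csf1 rose 1.62-fold, while Cxcl12 was 3.92-fold lower and Cxcl5 1.73-fold lower with palmitate. The monocyte chemokines Ccl2 and Ccl7 did not pass the test, nor did Ccl5, Cxcl10 or Cx3cl1. In all, 4 of the 9 tested genes passed an adjusted p of 0.05 (2 higher and 2 lower), where 20.2% of all 7931 tested genes did, 7.92% higher and 12.3% lower. The 2 groups of arrays did not overlap for 5 of the 9 genes, where the share over all tested genes was 38.3%. Of the 14 tested probe sets of these genes, 7 passed (4 higher and 3 lower), against 19.2% of all probe sets tested (8.63% higher and 10.6% lower), and the groups did not overlap for 8, against 37.2%. The median log2 fold change of the 9 genes was -0.039, and that of all tested genes was -0.051. Because the genes were listed with earlier results of these data known, these shares are a description and not a test. A gene with several probe sets is represented by the one with the highest mean log2 signal, each fold change is palmitate over BSA, and each adjusted p is from limma with Benjamini-Hochberg adjustment over all 13575 probe sets tested.

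**Figure D1:**
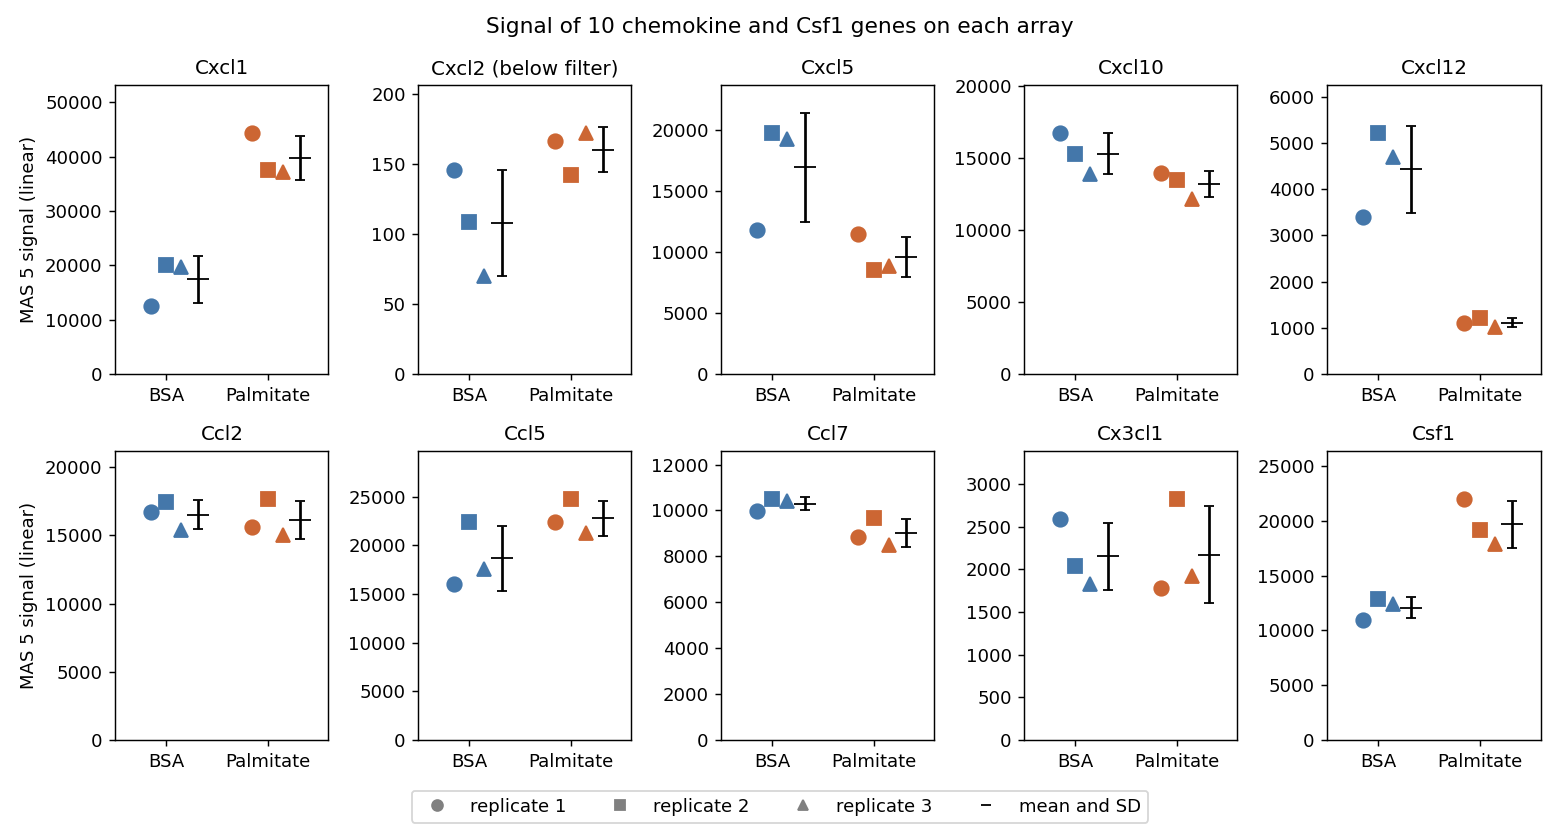
Signal (linear MAS 5 units, axes from 0, a scale for each gene) of the 10 genes on the 3 BSA arrays (blue) and the 3 palmitate arrays (orange), with the mean and SD of each group in black. Cxcl1 and Csf1 were higher on each palmitate array than on any BSA array, Cxcl12 and Cxcl5 were lower, and the Ccl2 values of the groups overlapped.

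A few facts of the whole series bear on these values. The submitters' signals had already been scaled, with a 2% trimmed mean between 1500.5 and 1500.56 on the 6 arrays, so a change of most transcripts in one direction would not show. A set of 9 probe sets that read control RNAs spiked in at hybridisation was brighter by 0.33 (log2) with palmitate. When arrays were scaled to those controls, the median over all tested probe sets was -0.34 in place of -0.0083, and the split of calls went from 1172 higher and 1437 lower to 404 higher and 3169 lower. Without BSA replicate 2, 1579 probe sets passed in place of 2609. Of 13 myotube markers 0 passed in either direction, while 4 passed as lower after scaling to those controls and 2 after scaling to the array's other 9 hybridisation control probe sets. BSA replicate 1 had the highest signal of the 3 BSA arrays for 12 of these 13 markers, with a summed signal of 307399 against 227736 and 198692 on the others and 231016 to 243321 with palmitate. By the brightest probe set of each gene, the same array was the lowest BSA array for 6 of the 10 members and the highest for 3. The 6 were Cxcl1, Cxcl5, Cxcl12, Ccl5, Ccl7 and Csf1. On the second Cxcl12 probe set it was not the lowest (1549 against 1543 and 1718). The part of this array in those values was not tested beyond leaving it out. Of 8 tested markers of mesenchymal and undifferentiated cells 7 fell, where 12.3% of all tested genes did. The 7 were Col1a1, Col1a2, Col3a1, Postn, Dcn, Pdgfra and Pdgfrb. The myoblast marker Myf5 did not pass (-0.24 ± 0.28, limma adjusted p = 0.603), and Pax7, Lum and Thy1 were too dim to test. The summed signal of the 11 on the array went from between 117461 and 140466 with BSA to between 34873 and 42771 with palmitate. Of 12 leukocyte markers 5 were bright enough to test and 0 passed, with Ptprc (CD45) at no more than 184.7 on any array and Cd53, Cd14 and Adgre1 reaching 1027, 824.8 and 695.5. The summed signal of the 12 ranged from 3405 to 3917 with BSA and from 3841 to 4021 with palmitate. All 8 endothelial markers lay below the brightness filter.

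Promoter sequences are shown for the genes on which the results turn: Cxcl1 and Csf1, which rose, Cxcl12, which fell, Cxcl10, which did not pass the test, and Cxcl2, which was too dim to be tested. The RefSeq promoter table (mouse build GRCm38.p6) held 6 of the 10 genes, namely Cxcl1, Cxcl2, Cxcl10, Cxcl12, Cx3cl1 and Csf1. The others were Cxcl5, Ccl2, Ccl5 and Ccl7. Each line gives the 250 bases before the annotated start, 5′ to 3′ on the gene's strand, with matches to the NF-kB consensus on either strand in capitals. Cxcl1 is chr5:90890995-90891244 (plus strand), Cxcl2 chr5:90903649-90903898 (plus), Cxcl10 chr5:92348890-92349139 (minus), Csf1 chr3:107760470-107760719 (minus) and Cxcl12 chr6:117168285-117168534 (plus).
Cxcl1: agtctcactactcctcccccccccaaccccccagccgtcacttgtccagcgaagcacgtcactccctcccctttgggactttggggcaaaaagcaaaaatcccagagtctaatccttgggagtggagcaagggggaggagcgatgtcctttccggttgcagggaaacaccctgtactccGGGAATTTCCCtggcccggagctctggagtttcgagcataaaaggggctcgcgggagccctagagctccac
Cxcl2: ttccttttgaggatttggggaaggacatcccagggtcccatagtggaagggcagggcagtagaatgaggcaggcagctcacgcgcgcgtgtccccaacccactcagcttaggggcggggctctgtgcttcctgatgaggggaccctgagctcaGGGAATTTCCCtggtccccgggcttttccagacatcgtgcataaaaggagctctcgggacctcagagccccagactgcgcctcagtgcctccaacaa
Cxcl10: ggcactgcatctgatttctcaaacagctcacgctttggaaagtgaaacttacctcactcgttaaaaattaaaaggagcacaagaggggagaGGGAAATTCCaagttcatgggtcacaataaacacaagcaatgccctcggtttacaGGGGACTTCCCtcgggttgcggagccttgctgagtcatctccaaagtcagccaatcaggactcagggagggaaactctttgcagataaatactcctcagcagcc
Csf1: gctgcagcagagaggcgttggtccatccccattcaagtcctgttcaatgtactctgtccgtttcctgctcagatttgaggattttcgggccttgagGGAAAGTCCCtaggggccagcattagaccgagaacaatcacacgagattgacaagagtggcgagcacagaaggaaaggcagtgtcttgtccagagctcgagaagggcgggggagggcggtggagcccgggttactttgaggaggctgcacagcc
Cxcl12: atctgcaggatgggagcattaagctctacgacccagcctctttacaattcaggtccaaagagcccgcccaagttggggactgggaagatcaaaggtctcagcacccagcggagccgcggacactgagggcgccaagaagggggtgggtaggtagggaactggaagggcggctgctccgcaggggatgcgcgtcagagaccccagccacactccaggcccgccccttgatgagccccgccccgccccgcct

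Matches were sought in the whole window from 250 bases before to 50 after the start. The same 11 bases, GGGAATTTCCC, began 71 bases before the start of Cxcl1 and 97 bases before that of Cxcl2, each made of overlapping matches on the 2 strands. Cxcl10 had 2 matches, GGGAAATTCC and GGGGACTTCCC, beginning 159 and 104 bases before the start, and Csf1 had GGAAAGTCCC beginning 154 bases before. No match lay in the windows of Cxcl12 and Cx3cl1. Of all 32851 promoter windows, 8.46% held a match. TGANTCA, the element bound by AP-1, was in the Cxcl10 window alone among the 6 genes, 74 bases before the start (7.81% of all windows), and so was the core of the interferon-stimulated response element (GAAA, any 2 bases, GAAA), 213 bases before the start (3.44% of all windows). Both elements were sought on both strands. These are letter matches, not measured binding.

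Among the neutrophil chemokines Cxcl1 rose and Cxcl5 fell. The signal of Cxcl1 was 12508, 20108 and 19640 on BSA replicates 1, 2 and 3, and 44305, 37588.5 and 37103 on palmitate replicates 1, 2 and 3. Each palmitate array was thus above each BSA array, and BSA replicate 1 was the lowest. The mean went from 17419 ± 4260 to 39666 ± 4025 (SD, n = 3), a log2 fold change of 1.21 ± 0.18 (SE, limma adjusted p = 0.000623). The call held in all 19 alternatives run for this gene, with log2 fold changes from 0.88 to 1.33.

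Cxcl5, a neutrophil chemokine that lies close to Cxcl1 on chromosome 5, had signals of 11811, 19732 and 19287 with BSA and 11457, 8516 and 8822 with palmitate. The groups stood apart by little, since BSA replicate 1 lay just above palmitate replicate 1. The mean went from 16943 ± 4450 to 9598 ± 1617 (SD, n = 3), and the log2 fold change was -0.79 ± 0.20 (SE, limma adjusted p = 0.0159). Over all 19 alternatives the adjusted p ran from 0.000454 to 0.0816. The call was lost without BSA replicate 2 (-0.67, adjusted p = 0.0816), without BSA replicate 3 (-0.68, adjusted p = 0.0584), without palmitate replicate 3 (-0.74, adjusted p = 0.0559) and in the fit without an intensity trend (adjusted p = 0.0704). With BSA replicate 1 left out it was -1.04 (adjusted p = 0.00121).

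The low BSA replicate 1 values of the 2 genes went together. Within an array the log2 signal of Cxcl1 exceeded that of Cxcl5 by 0.083, 0.027 and 0.026 with BSA, although each gene alone had an SD near 0.4 (0.39 for Cxcl1 and 0.42 for Cxcl5) over the same arrays. With palmitate this difference was 1.95, 2.14 and 2.07. It was larger with palmitate by 2.01, going from 0.045 ± 0.032 to 2.06 ± 0.096 (SD, n = 3), and the groups did not overlap (exact permutation p = 0.1, two-sided, the smallest that 3 arrays against 3 can give; 0.11 adjusted over 11 such comparisons). Because both signals come from one array, scaling by a single factor per array leaves this value as it is.

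Cxcl2, whose gene follows Cxcl1 on the chromosome, was dim throughout. Its signals were 145.8, 108.8 and 70.1 with BSA and 166.7, 142.3 and 172.3 with palmitate, under the filter signal of 267.1, so it was not tested. The groups overlapped. In the fit without a filter the log2 fold change was 0.63 ± 0.68 (SE), with a 95% interval of -0.86 to 2.11, which holds both no change and the rise of Cxcl1. Whether Cxcl2 rose was not detectable on these arrays.

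Cxcl10, a T cell chemokine induced by interferon and NF-kB, had signals of 16734, 15285 and 13912 with BSA and 13956, 13489 and 12171 with palmitate. The groups overlapped, with BSA replicate 3 below palmitate replicate 1. The log2 fold change was -0.21 ± 0.13 (SE, limma adjusted p = 0.288), with a 95% interval of -0.50 to 0.072, so a rise above 1.05-fold lay outside the interval as the arrays were scaled. After scaling to the hybridisation controls it passed as lower, at -0.55 (adjusted p = 0.0278).

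Cxcl12 had the largest change of the 9 tested genes. Its brighter probe set read 3388, 5212 and 4688 with BSA and 1110, 1208.5 and 1024 with palmitate. The highest palmitate array was far below the lowest BSA array, which was again BSA replicate 1. The mean went from 4430 ± 939 to 1114 ± 92.2 (SD, n = 3), a log2 fold change of -1.97 ± 0.19 (SE, limma adjusted p = 4.14e-05). The second probe set read 1549, 1543 and 1718 with BSA and 654.6, 748.4 and 709.8 with palmitate, at -1.19 ± 0.19 (adjusted p = 0.00125), so the 2 probe sets had the same direction and a different size. The call held in all 19 alternatives, from -2.30 to -1.58.

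Both receptors of Cxcl12 fell as well. Ackr3, which takes up and degrades Cxcl12, read 1711, 2207 and 2551 with BSA and 979.9, 846.8 and 735.8 with palmitate (-1.33 ± 0.21, adjusted p = 0.00109). Cxcr4, the signalling receptor, read 993.1, 711.5 and 910.2 with BSA and 439.6, 105.8 and 210.1 with palmitate (-2.01 ± 0.46, adjusted p = 0.00996). On palmitate replicates 2 and 3 Cxcr4 was below the filter signal, so the size of its fold is imprecise. The groups did not overlap for either gene. The mesenchymal markers given above moved with these 3 genes, and their part in these falls was not tested. In bulk RNA fewer cells of a type and less RNA per cell cannot be told apart.

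**Figure D2:**
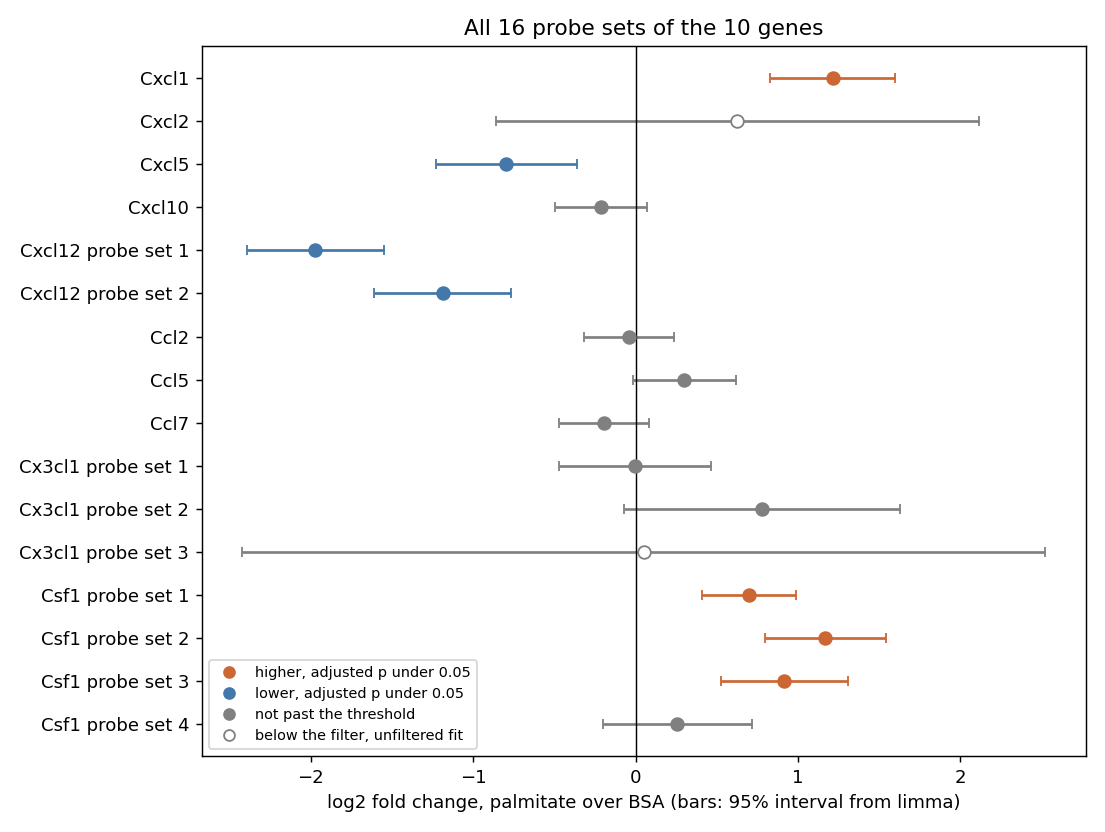
Log2 fold change, palmitate over BSA, of all 16 probe sets of the 10 genes, with 95% intervals from limma (n = 3 arrays per group). Orange and blue points passed an adjusted p of 0.05, grey points did not, and the 2 open points lay below the brightness filter and come from the fit without it.

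Neither of the monocyte chemokines passed the test. Ccl2 (MCP-1) had signals of 16741, 17452 and 15381 with BSA and 15634, 17662 and 15006 with palmitate. The groups overlapped, with means of 16525 ± 1052 and 16101 ± 1388 (SD, n = 3). The log2 fold change was -0.039 ± 0.13 (SE, limma adjusted p = 0.864), and its 95% interval of -0.31 to 0.24 corresponds to folds of 0.80 to 1.18. Its sign turned without BSA replicate 2 (0.0014) and without palmitate replicate 3 (0.010).

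Ccl7 (MCP-3), the neighbour of Ccl2 and also a Ccr2 ligand, had signals of 9964, 10497 and 10393 with BSA and 8849, 9687 and 8503 with palmitate. Each palmitate array was below each BSA array, but the shift was small, at -0.19 ± 0.13 (SE, limma adjusted p = 0.327, 95% interval -0.47 to 0.086). It passed as lower after scaling to the hybridisation controls (-0.53, adjusted p = 0.0343). Within arrays the log2 difference between Ccl2 and Ccl7 changed by 0.15 (exact permutation p = 0.1, two-sided, the smallest possible; 0.11 adjusted).

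Ccl5 (RANTES), which attracts T cells and monocytes, had signals of 15980, 22405 and 17578.5 with BSA and 22397, 24752 and 21231 with palmitate. BSA replicate 2 lay among the palmitate arrays, and the other BSA arrays lay below them. The log2 fold change was 0.30 ± 0.15 (SE, limma adjusted p = 0.176), with a 95% interval of -0.016 to 0.62, so a rise of up to 1.54-fold is within it. It turned to -0.032 after scaling to the hybridisation controls and ran from 0.20 to 0.44 on leaving out 1 array.

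Cx3cl1, which is anchored in the membrane until a protease sheds it, gave no stable direction. Its brightest probe set read 2594, 2038 and 1826 with BSA and 1779, 2825 and 1919 with palmitate, with overlapping groups and a log2 fold change of -0.00049 ± 0.21 (SE, limma adjusted p = 0.999, 95% interval -0.47 to 0.47). A dimmer one read 275.5, 335.4 and 364.2 with BSA and 358.6, 955.8 and 493.9 with palmitate (0.78 ± 0.39, adjusted p = 0.191), with the high value on palmitate replicate 2. The faintest one, below the filter, ranged from 18.8 to 219.

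Csf1 rose on 3 of its 4 probe sets. The brightest read 10993, 12897 and 12384 with BSA and 21982.5, 19166 and 17853 with palmitate, and its mean went from 12091 ± 985.2 to 19667 ± 2110 (SD, n = 3). Each palmitate array was above each BSA array, and the log2 fold change was 0.70 ± 0.13 (SE, limma adjusted p = 0.0035). A second probe set from the same sequence record read 4108, 4362.5 and 4870 with BSA and 9373, 12698 and 8312 with palmitate, a larger change of 1.17 ± 0.17 (adjusted p = 0.000655). The third, built on a different record, read 1389, 1446 and 1432 with BSA and 2214, 3084 and 2834 with palmitate (0.92 ± 0.18, adjusted p = 0.00422).

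The fourth Csf1 probe set came from the same record as the third and is of a type marked as open to cross-hybridisation in its identifier. It read 1285, 1202 and 1677 with BSA and 1406.5, 2050 and 1538 with palmitate. Its groups overlapped, at 0.26 ± 0.21 (adjusted p = 0.438, 95% interval -0.20 to 0.72). After scaling to the hybridisation controls the brightest probe set no longer passed (0.37, adjusted p = 0.129), nor did the third (0.58, adjusted p = 0.0587), while the second did (0.83, adjusted p = 0.00621). Its receptor Csf1r read 529.9, 124.8 and 409.3 with BSA and 729.1, 724.9 and 703.4 with palmitate (1.26 ± 0.47, adjusted p = 0.0805), and it passed without BSA replicate 1 (1.67, adjusted p = 0.0334). The groups of Csf1r did not overlap. BSA replicate 2 was the lowest, and without it the log2 fold change of Csf1r was 0.63, the smallest of the 17 alternatives run. Over these 17 the limma adjusted p reached 0.195. Of the other leukocyte markers Itgam (8.2 to 81.5 with BSA and 100.7 to 237.6 with palmitate) and Tyrobp (45.9 to 200.1 and 274.4 to 297.7) also had higher palmitate arrays without overlap, both genes being too dim on average to be tested, whereas Cd53, Cd14 and Adgre1 had lower ones without overlap. Groups without overlap were seen for 38.3% of all tested genes, a share that leaves out genes as dim as Itgam and Tyrobp. The part of leukocyte markers in the Csf1r values was not tested.

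Differences within an array are not moved by a single scaling factor per array. The log2 signal of Cxcl1 minus that of Cxcl12 was larger with palmitate by 3.19, and that of Cxcl1 minus Cxcl10 by 1.43. The same quantity against Ccl7 was larger by 1.41, against Ccl2 by 1.25, against Cx3cl1 by 1.22, against Ccl5 by 0.91 and against Csf1 by 0.52, and the groups did not overlap in any of these. Csf1 minus Ccl2 was larger by 0.74, again with no overlap. Each of these 8 comparisons gave an exact permutation p of 0.1 (two-sided, 0.11 adjusted over 11), the smallest possible. Against Cxcl2 the difference was 0.59 with overlapping groups (exact permutation p = 0.4). The comparisons that hold Cxcl1 all share its signal, so they are not independent of one another.

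Chemokine genes lie in clusters, and some members that did not pass had a neighbour that did. Of 24 other chemokines on the array 8 were tested, of which 1 rose and 3 fell (7.92% and 12.3% over all genes), with a median log2 fold change of -0.33. The gene order is that of RefSeq, and the neighbours were picked after their values were seen, so the differences between them carry no test.

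Ccl11 (eotaxin) and Ccl8 (MCP-2), which follow Ccl2 and Ccl7 on chromosome 11, fell. Ccl11 read 3346, 4776 and 4660 with BSA and 1060, 1495.5 and 938.6 with palmitate (-1.88 ± 0.22, adjusted p = 0.000122), and Ccl8 read 7603, 7048 and 7137 with BSA and 3654.5, 3158 and 2901 with palmitate (-1.17 ± 0.15, adjusted p = 0.000222). Relative to Ccl7 on the same array, Ccl11 changed by -1.69 and Ccl8 by -0.98, and for both the ranges of the 2 groups stood apart.

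Ccl4 (MIP-1 beta), in the cluster that begins with Ccl5, rose 4.83-fold. It read 595.1, 795.7 and 651.9 with BSA and 2922, 3722 and 3194 with palmitate (2.27 ± 0.19, limma adjusted p = 1.68e-05). Its log2 difference from Ccl5 went from -4.77 ± 0.038 to -2.80 ± 0.12 (SD, n = 3), very even among the BSA arrays. Cxcl9, an interferon-gamma-induced ligand of Cxcr3 like Cxcl10 and separated from it by 1 gene, read 7706, 5659.5 and 4637 with BSA and 2129, 2115 and 1301.5 with palmitate (-1.70 ± 0.23, adjusted p = 0.00043). It changed by -1.49 relative to Cxcl10, with no overlap between groups, while Cxcl11, the remaining Cxcr3 ligand, was at -0.52 ± 0.29 (adjusted p = 0.24). The calls of Ccl4, Ccl8, Ccl11 and Cxcl9 held in all 18 alternatives run for them.

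**Figure D3:**
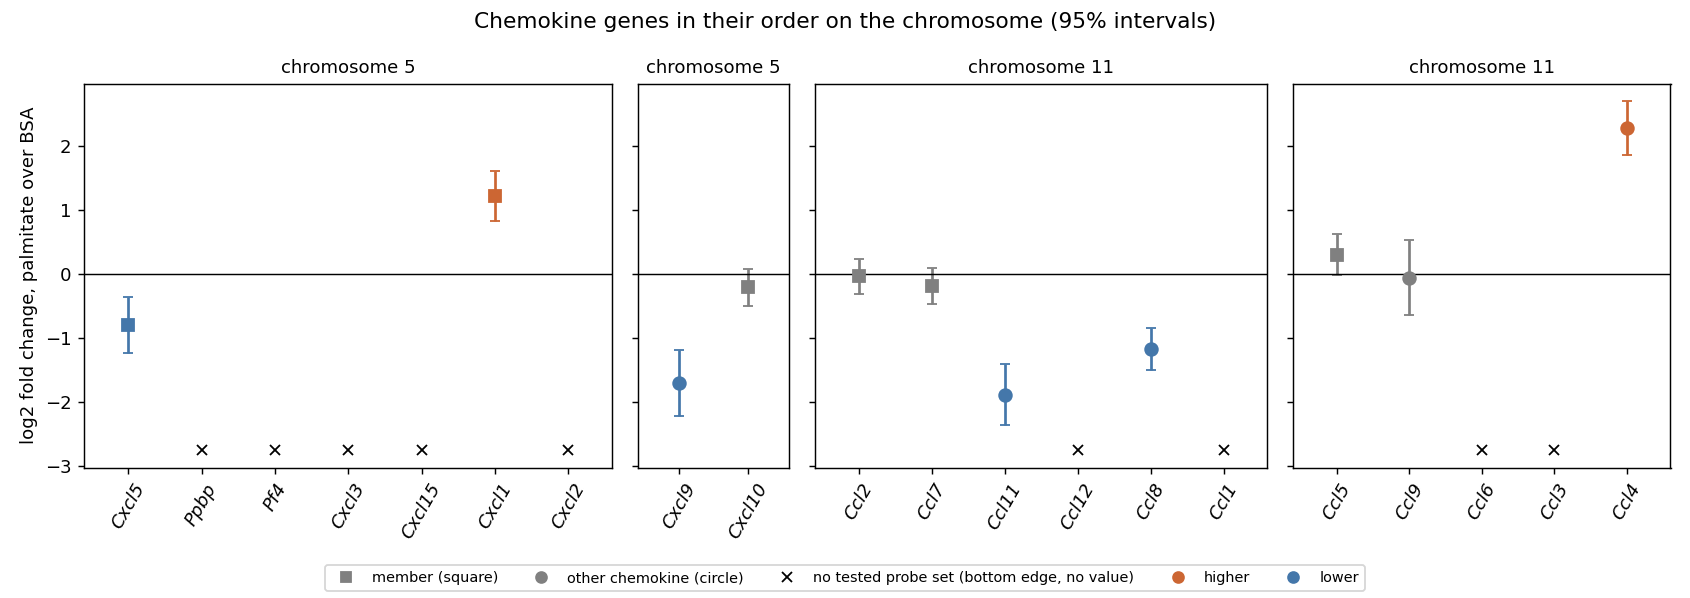
Log2 fold change with 95% interval (limma, n = 3 arrays per group) of chemokine genes in their RefSeq order along chromosomes 5 and 11, with distances not to scale. Squares are the genes described here, circles are other chemokines, and crosses at the bottom edge mark genes with no tested probe set. Cxcl1 and Cxcl5 sit in one cluster with opposite signs, and Ccl11 and Ccl8 lie below their neighbours Ccl2 and Ccl7.

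Other colony-stimulating factors were mostly too dim to test. Kitl, the ligand of Kit, was at -0.49 ± 0.26 (adjusted p = 0.218), and passed as lower without BSA replicate 1 (-0.83, adjusted p = 0.0134) and after scaling to the hybridisation controls (-0.83, adjusted p = 0.0255). Csf2 (GM-CSF) was below the filter and is named because its arrays separated, at 66.9, 26.3 and 19.0 with BSA and 200.8, 423.5 and 268.4 with palmitate. In the fit without a filter its log2 fold change was 3.14 ± 0.82 (SE, limma adjusted p = 0.0312), with a 95% interval of 1.36 to 4.92. The BSA signals were very dim, so the size is imprecise. Other listed genes below the filter separated too, among them Ccl27a, Cxcl13 and Cxcr3 (higher) and Mmp12 and Thy1 (lower). None of these passed in the fit without a filter (lowest limma adjusted p 0.0535, for Ccl27a). Over all tested genes the groups did not overlap for 38.3%, a share that holds no genes below the filter and so is not a measure for these. Csf3 and Il34, the second Csf1r ligand, were also below the filter, with overlapping groups.

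Most chemokine receptors were dim in these cells. Of 15 on the array 4 were tested, with 0 higher and 2 lower (Cxcr4 and Ackr3, above), beside 7.92% higher and 12.3% lower over all genes. The fourth beside Csf1r was the decoy receptor Ackr1 at -0.032 ± 0.49 (adjusted p = 0.975). The sign of Ackr1 turned without BSA replicate 3 (0.24) and without palmitate replicate 1 (0.37). Cxcr2, the receptor of Cxcl1 and Cxcl5, did not exceed 78.8 on any array. Ccr2, the receptor of Ccl2 and Ccl7, did not exceed 198.8.

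Genes of the NF-kB pathway, which acts on chemokine promoters, were higher or did not pass. Of 11 tested, 5 rose and 0 fell, with a median of 0.57, beside 7.92% higher and 12.3% lower over all genes. Relb (0.88 ± 0.21), the inhibitors Nfkbib (0.93 ± 0.24) and Nfkbia (0.57 ± 0.16), the co-regulator Nfkbiz (0.72 ± 0.20) and the deubiquitinase Tnfaip3 (0.90 ± 0.29) passed, Tnfaip3 being named because it completes the 5, while Rela was at 0.25 ± 0.14 (adjusted p = 0.257). None of the 5 calls held after scaling to the hybridisation controls, where the list median was 0.24. With the array's other 9 hybridisation control probe sets the median was 0.32, and of the 5 only Nfkbib passed (0.67, adjusted p = 0.0436). Leaving out 1 array also ended the call of Relb without BSA replicate 3 (adjusted p = 0.0515), of Nfkbib on leaving out BSA 3 or either palmitate 2 or 3 (highest adjusted p 0.0806), of Nfkbia on leaving out BSA 1 or either palmitate 1 or 3 (highest 0.103), of Nfkbiz on leaving out BSA 1 or 2 or palmitate 1 or 3 (highest 0.097), and of Tnfaip3 whichever array was left out (highest 0.166). The fit without an intensity trend ended the calls of Nfkbib, Nfkbia, Nfkbiz and Tnfaip3. The calls of Nfkbia and Tnfaip3 also ended with no filter and with the replicate number as a block, and that of Tnfaip3 with a looser filter.

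Of 9 tested genes for proteins that control the decay of chemokine mRNAs, 2 rose and 1 fell, beside 20.2% called over all genes. Their median of 0.29 became -0.042 after scaling to the hybridisation controls. Zfp36 (tristetraprolin), which promotes decay of AU-rich mRNAs, read 1441, 1622 and 1264 with BSA and 3989, 4767 and 4781.5 with palmitate, a 3.13-fold rise (1.65 ± 0.17, limma adjusted p = 5.71e-05). Its relative Zfp36l2 rose by 0.98 ± 0.15 (adjusted p = 0.000736). Zfp36l1 fell by 0.52 ± 0.15 (adjusted p = 0.0341), a call lost when any array but replicate 1 of either group was omitted (highest adjusted p 0.121), after median or 75th percentile scaling, without the intensity trend and with the replicate block (highest 0.0925 over these). The stabilising factor Elavl1 was at 0.36 ± 0.14 (adjusted p = 0.0883).

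Of 15 interferon signalling genes 4 fell and 0 rose, with a median of -0.22, beside 20.2% called and 12.3% lower over all genes. After scaling to the hybridisation controls 8 passed as lower, and 7 with the other controls. With these scalings 3169 and 2749 of all tested probe sets passed as lower, in place of 1437. Gbp2, a guanylate-binding protein induced by interferon-gamma, fell by 2.25 ± 0.20 and the antiviral gene Ifit3 by 1.13 ± 0.14, while the kinase Jak2 was at -0.74 ± 0.17 and the receptor chain Ifnar2 at -0.59 ± 0.18. Jak2 lost its call without BSA replicate 2 (-0.64, adjusted p = 0.0632). Ifnar2 lost it on omitting each array except palmitate 2 (highest adjusted p 0.149), with a looser filter or none, without the intensity trend and with the replicate block (up to 0.0839). The transcription factor Irf1, which acts on the Cxcl10 and Cxcl9 promoters, was at 0.025 ± 0.20 (adjusted p = 0.951).

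Proteases that shed or trim chemokines were lower in 4 of 6 tested cases, with 0 higher and a median of -0.87. Over all tested genes 12.3% were lower and 7.92% higher. Mmp14 fell by 1.39 ± 0.17, Mmp2, which cleaves Cxcl12 and Ccl7, by 1.08 ± 0.16, and cathepsin S (Ctss) by 1.30 ± 0.33. Adam10, a sheddase of Cx3cl1, was at -0.67 ± 0.19 (adjusted p = 0.0285), and its call ended when any array but replicate 1 of either group was omitted (highest adjusted p 0.12), without the intensity trend and with the replicate block. Ctss lost its call without BSA 2 or BSA 3 (adjusted p up to 0.0517). The sheddase Adam17 was at 0.27 ± 0.19 (adjusted p = 0.346).

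Heparan sulfate proteoglycans hold chemokines at the cell surface. Of 10 tested genes for their core proteins and for the enzymes that build the sugar chains, 4 fell and 0 rose. Beside this, 12.3% of all tested genes were lower and 7.92% higher. The median of the 10 was -0.54, and 7 passed as lower after scaling to either set of hybridisation controls. Those scalings also raised the number of all tested probe sets that passed as lower, from 1437 to 3169 and 2749. The core proteins Sdc2 (-0.83 ± 0.15), Sdc3 (-1.26 ± 0.28) and Sdc1 (-0.66 ± 0.15) and the sulfotransferase Hs2st1 (-0.75 ± 0.18) passed, and Hs2st1 lost its call without BSA 2 or BSA 3 (adjusted p up to 0.0531). Several of these protease and proteoglycan genes are also expressed by fibroblasts, and the part of the mesenchymal markers in their falls was not tested.

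**Figure D4:**
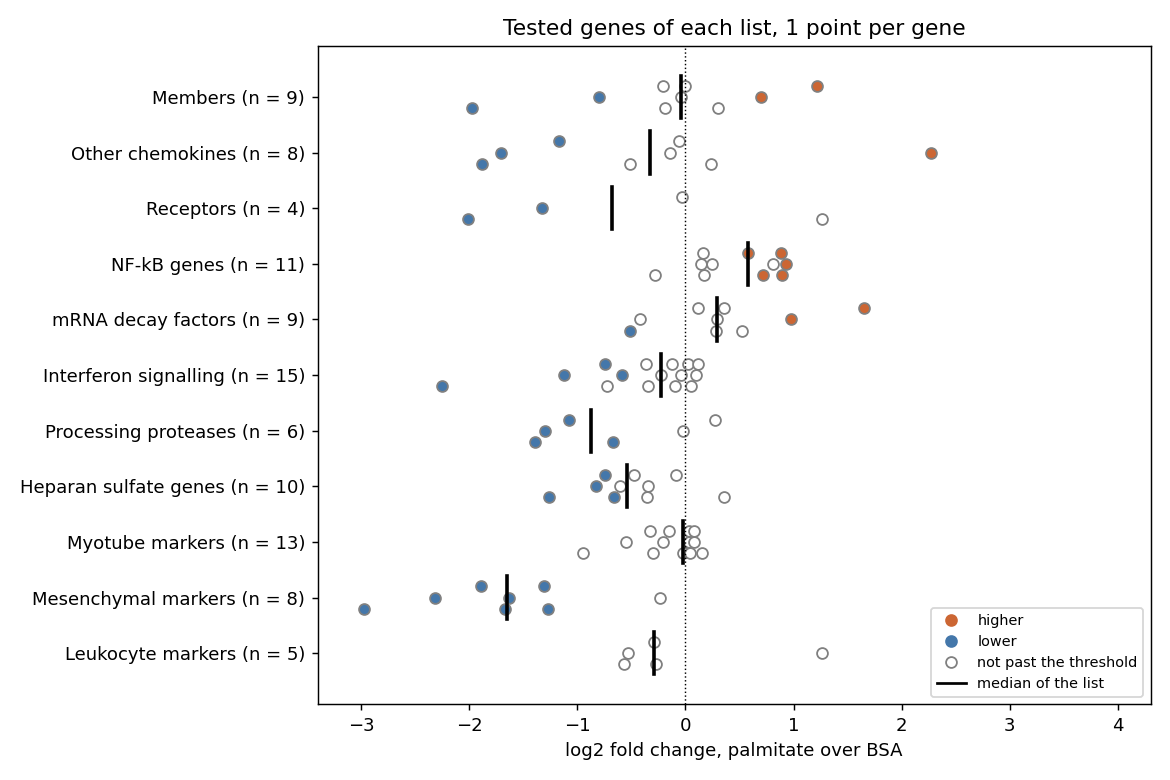
Log2 fold change, palmitate over BSA, of each tested gene (1 point per gene, n = 3 arrays per group) in the lists of related genes and of cell markers, with the list median as a black bar. The NF-kB list lay mostly above 0 and the protease, proteoglycan and mesenchymal lists mostly below, while the 9 members spread to both sides.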

How the data were processed

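The deposited table holds a linear signal intensity for each probe set and array, which the submitters' processing notes credit to MAS 5. Its settings, detection calls and scan dates are not given in the sources used here, so detection and batches were not examined. Genes were named from the platform annotation: of 22626 probe sets that are not controls, 20380 had 1 symbol, and only these were named.

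Signals were log2 transformed with no offset. The dimmest 40% of probe sets by mean log2 signal (under 267.1) were left out. Palmitate was compared with BSA over the other 13575 (7931 genes) in two-sided tests with limma 3.58.1 (R 4.3.3), using lmFit and eBayes(trend = TRUE). P-values were adjusted by Benjamini-Hochberg, with 0.05 as the threshold. Signal differences between members on the same array were compared by exact permutation over the 6 arrays. The fit was tested on simulated data.

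All 10 members, with every probe set, were to be named, along with up to 4 genes of each list of related genes by smallest p and every tested receptor, chemokine or colony-stimulating factor that passed. Members and lists were chosen with earlier results of these data known. The 13 lists cover the members, related genes and cell markers.

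Alternatives were 4 scalings, 3 filters, offsets of 50 and 200, no trend, a replicate block, averaged probe sets and leaving out each array. Added after the data were seen were a scaling to the array's other 9 hybridisation controls and the application of the alternatives to the lists of related genes. Averaging of probe sets was not applied to those lists.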

Additional observations from a re-analysis of the deposited data

How the results depend on the processing

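Of the members that passed, Cxcl1 and Cxcl12 kept their call and direction in all 19 alternatives, Csf1 in 17 and Cxcl5 in 15. The number of members that passed was 3 to 5, and on leaving out 1 array 3 to 4. Over all probe sets 2609 passed, and 1579 to 2315 on leaving out 1 array, the lowest without BSA replicate 2. Scaling to the hybridisation controls gave 404 higher and 3169 lower over all probe sets, and the other 9 control probe sets gave 546 and 2749, where Cxcl10 (-0.47, adjusted p = 0.0498) and Ccl7 (-0.45, adjusted p = 0.0457) passed as lower and Csf1 did not pass (0.44, adjusted p = 0.0613). The cause was not tested.

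Signs that turned were all of values that did not pass. Cx3cl1 was 0.026 with median scaling, 0.030 with 75th percentile scaling, 0.036 with quantile normalization, 0.00060 with an offset of 200, 0.39 with its probe sets averaged, and -0.20 to 0.14 on leaving out 1 array (0.14 without BSA replicate 1, 0.13 without palmitate 1, 0.074 without palmitate 3). Ccl5 was -0.032 with hybridisation control scaling. Ccl2 was -0.11 to 0.010 and Ackr1 -0.35 to 0.37 on leaving out 1 array. No within-array difference between members turned its sign.

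The replicate numbers did not pair the samples: same-numbered BSA and palmitate arrays had correlations of -0.23, -0.13 and 0.0091 in their deviations from the group means. With the replicate block 1973 probe sets passed and the 4 member calls were the same. The number of arrays and the dimness of Cxcl2 and of most receptors limit what can be detected.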
